A study of Mus musculus with 14 samples.

Results

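The genes described here are the microglial, complement, major histocompatibility complex (MHC) and cytokine signalling genes of the mouse hippocampus. They were chosen by name from the table of 7756 genes, as Trem2, Tyrobp, Csf1, Csf1r, Aif1, the C1q subunits, C3, and the genes whose symbols begin with the family names of MHC class genes, cathepsins, Toll-like receptors, interferon regulatory factors and interferon-inducible genes, interleukins and their receptors, tumour necrosis factor (TNF) ligands and receptors, NF-kB inhibitors, Janus kinases (JAK) and STAT factors, chemokines, transforming growth factor beta (TGF-beta) and its receptors, and P2Y receptors. The rule found 90 genes, of which 79 passed the filter on low counts and were tested among 7338 genes in all. The rule itself uses no measured value, but the rows it was applied to had been selected by the authors on counts and on difference from control. Tmem119, P2ry12, Cx3cr1, B2m and C4b, which the rule covers by name, were not among those rows and so were not analysed here.

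Hippocampal RNA of wild-type male C57BL/6J mice, 8 weeks old at the start, was sequenced after 28 days in 3 atmospheres. In the protocol of the methods, a Y-maze test and a passive avoidance test with an electric shock came between the exposure and the taking of tissue. The intermittent hypoxia (IH) group (n = 5) had oxygen that moved between 10% and 21% with a period of 2 min for 8 h each day, the sustained hypoxia (SH) group (n = 5) had 10% oxygen for 8 h each day, and the control group (n = 4) stayed at 21% oxygen. According to the methods, the control libraries came from a preliminary experiment and the hypoxic libraries from the main one, so exposure and experiment cannot be told apart in any comparison with control. The table holds only genes whose processed signal the authors found to differ from control, so shares of changed genes hold within that selection.

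Microglia are the resident macrophages of the brain. They depend on the receptor CSF1R, signal through the adaptor TYROBP (DAP12) and its partner TREM2, and are the main source of the complement protein C1q, which tags synapses and debris for removal. Cytokines such as interleukins and TNF ligands act through receptors that lead to NF-kB or to JAK and STAT factors, and interferons induce a set of antiviral genes through STAT and IRF factors.

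Library totals on the deposited genes lay between 7203659 and 11777101 counts. Of 18 microglial markers, 8 were in the table, and their summed normalized count lay between 4550 and 4703 in control, between 4116 and 4927 in IH and between 3648 and 4266 in SH. No marker of T cells or B cells was among the rows. The 12 choroid plexus markers summed to between 4054 and 123278 in control, between 5056 and 74719 in IH and between 4672 and 90975 in SH, so single libraries in every group held far more of them than others. Endothelial markers (8 in the table) summed to between 5660 and 6334 in control, to between 6454 and 6692 in IH and to between 6867 and 7309 in SH. Erythrocyte markers (5 in the table) summed to between 2926 and 3189 in control, to between 1649 and 2304 in IH and to between 2203 and 3081 in SH. All 8 markers of hippocampal neurons were in the table and summed to at least 29765 in every library.

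Counts of members called are read beside the share of all genes called. In IH against control, 4 members were lower and 5 were higher at an adjusted p under 0.05 (edgeR), which is 5.06% and 6.33% of the members tested, beside 4.85% and 6.08% of all genes tested. In SH against control, 9 were lower and 5 higher, which is 11.4% and 6.33% of the members, beside 10.5% and 10.2% of all genes. With single libraries left out, the counts ranged from 0 to 4 lower and 2 to 6 higher in IH. In SH they ranged from 3 to 15 lower and 1 to 6 higher, and the shares of all genes moved as well. Between IH and SH, 0 members were lower in IH and 2 were higher, which is 0% and 2.53% of the members, beside 0.899% and 1.47% of all genes. At an unadjusted p under 0.05, 3 members were lower and 16 higher in this last comparison. The share of all genes at that limit was not computed, so counts at an unadjusted p alone cannot be set beside it. DESeq2 called 5 members higher in it (C1qa, C1qc, Ctsc, Irf3 and Nfkbil1), which is 6.33% of the members beside 2.52% of all genes by that tool. At the limits used in the study, a log2 fold change beyond 0.58 with an unadjusted p under 0.05, 3 members were lower and 2 higher in IH, 2 were lower and 1 higher in SH, and 2 were lower and 0 higher in IH against SH. The same limits took in 2.68%, 2.71% and 0.981% of all genes in these comparisons, in either direction. The median log2 fold change of the members was -0.01 in IH against control, beside -0.02 for all genes. In SH against control it was -0.14, beside 0.00 for all genes, but -0.0747 with length and GC trends removed and -0.0743 with no filter on low counts. Relative to the control mean, the median member was at 0.01 in SH replicate 1, within the range of the control libraries (-0.03 to 0.02), and between -0.15 and -0.07 in the other SH libraries. In IH against SH the median was 0.12, beside 0.00. These 3 comparisons share their libraries and are not independent of each other.

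**Figure D1:**
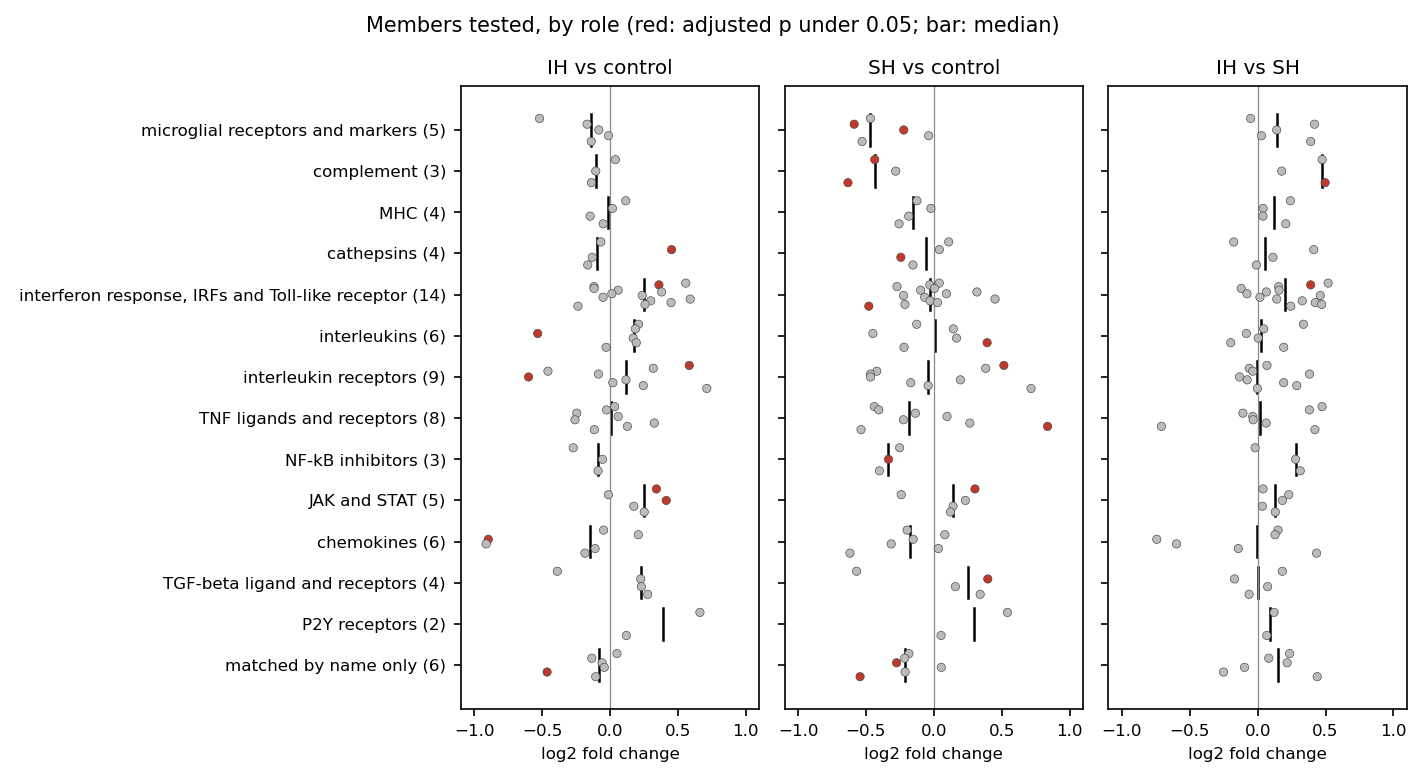
Log2 fold change (horizontal axis) of each of the 79 members tested, in rows by role with the number of members, for IH against control, SH against control and IH against SH. Red points passed an adjusted p under 0.05 and bars are medians of a role. The microglial and complement rows lie to the left in SH against control, with medians of -0.47 and -0.44 as counted and of -0.25 and -0.34 with length and GC trends removed. In IH against control their medians were -0.14 and -0.10 as counted and -0.06 and -0.03 with the trends removed.

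Fold changes against control moved with the length of the transcript, in the members as in all genes. Over all genes, IH against control had a median of -0.16 on the log2 scale where transcripts were under 1 kb and of 0.11 where they were over 8 kb. In SH against control it was -0.15 under 1 kb and 0.14 over 8 kb, whereas between IH and SH it lay between -0.03 and 0.03 in every length class. In SH against control, the 13 members of 1 to 2 kb had a median of -0.22, beside -0.15 for all genes of that class, and the 22 members of 2 to 4 kb had a median of -0.19, beside -0.06. The 35 members of 4 to 8 kb had a median of 0.04, beside 0.09. After trends with length and GC content were removed from each library, 1 member was lower and 3 were higher in IH against control, 1 was lower and 1 higher in SH against control, and 1 was lower and 1 higher in IH against SH. The members still called were Irf3, Stat3, Jak2 and Tgfb1i1 in IH, C1qc in SH and C1qc between IH and SH. The carboxypeptidase gene Ctsa, not called as counted, was called with the trends removed, at 0.20 in SH against control (adjusted p = 0.0164) and -0.20 in IH against SH (adjusted p = 0.0209). Among all genes, 3.07% were then lower and 2.53% higher in IH against control, 3.48% and 3.02% in SH against control, and 1.14% and 1.08% in IH against SH. Whether the trends come from the RNA, the libraries or the exposure was not tested.

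**Figure D2:**
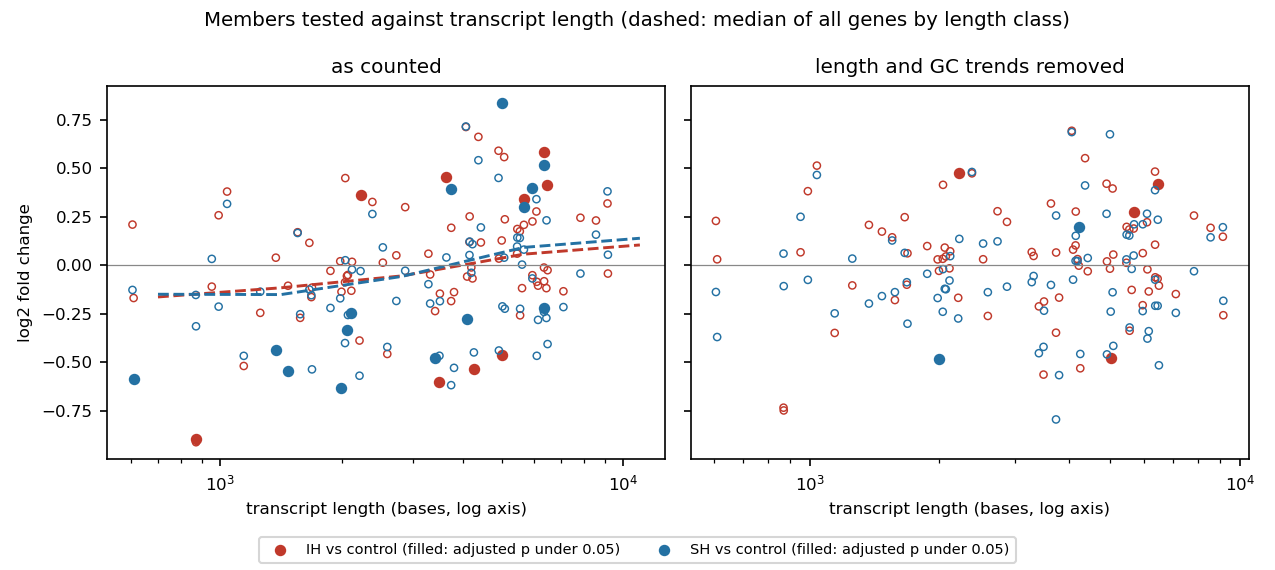
Log2 fold change of the members against the length of their longest protein-coding transcript (log axis), before (left) and after (right) trends with length and GC content were removed. Filled points passed an adjusted p under 0.05. The dashed medians of all genes rise from -0.16 to 0.11 in IH and from -0.15 to 0.14 in SH between the shortest and the longest class.

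Some microglial and complement genes fell after sustained hypoxia. Of the 5 microglial receptors and markers tested, 2 fell in SH against control (Tyrobp and Csf1r), and of the 3 complement genes tested 2 fell (C1qa and C1qc), beside 10.5% of all genes lower in that comparison, with no member of either group called in IH against control. Of these 4, C1qc was still called with length and GC trends removed. At an unadjusted p under 0.05, 1 of these 8 genes was lower in IH. Another 23 genes listed for microglia were tested, not all of them made by microglia alone. Of these, 0 were called in SH by edgeR or DESeq2, and 13 were below and 10 above control with a median log2 fold change of -0.08. At an unadjusted p under 0.05, 2 of the 23 were lower and 2 higher. In bulk RNA, fewer cells of a type and less RNA per cell cannot be told apart.

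The ± beside a log2 fold change is its standard error. C1qc, which encodes the C chain of the C1q complex, had normalized counts of 793, 872, 916 and 734 in the 4 control libraries, 704, 709, 980.4, 696 and 685 in the 5 IH libraries and 638, 449.7, 520.1, 517 and 548 in the 5 SH libraries. Every SH library was below every control and every IH library, while IH and control overlapped and IH replicate 3 stood above the other IH libraries. The SH level was 0.65 times that of control (log2 fold change -0.63 ± 0.12, adjusted p = 0.00288). This call remained in each of 26 alternatives, and with the length and GC trends removed the log2 fold change was -0.48 (adjusted p = 0.0144). Against SH, the IH level was 1.41 times as high (log2 fold change 0.50 ± 0.11, adjusted p = 0.0323). That call was lost without replicates 1, 2, 3 and 4 of IH or replicates 2, 3, 4 and 5 of SH, each left out alone (adjusted p between 0.0512 and 0.0792), and with only the 2 groups fitted. IH and control were 755 ± 126 and 829 ± 81.2 (SD, n = 5 and 4; log2 fold change -0.14 ± 0.12, adjusted p = 0.45).

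C1qa, the A chain, was also lowest in SH, while its IH mean lay above that of control. Its counts were 661, 799, 1003 and 739 in control, 785, 693, 980.4, 800.1 and 859 in IH and 557, 518, 522, 702 and 661 in SH. Control replicate 3 and IH replicate 3 were the highest, and the SH range overlapped that of both other groups. The fall in SH against control passed the test (log2 fold change -0.44 ± 0.13, adjusted p = 0.029), but was lost without replicates 2 and 3 of control or replicates 2 and 3 of SH, each left out alone (adjusted p between 0.061 and 0.0998) and stood at -0.20 (adjusted p = 0.399) with the trends removed. In IH against SH it did not pass with edgeR (log2 fold change 0.48 ± 0.12, adjusted p = 0.0583), but was called by DESeq2 (adjusted p = 0.00954), with a robust prior and without replicate 3 of control (adjusted p = 0.0414). In IH against control the value was close to 0 (log2 fold change 0.04, adjusted p = 0.856). C1qb, the B chain, had means of 749 ± 78.7 in control, 696 ± 98.01 in IH and 616 ± 59.0 in SH and was not called in SH (log2 fold change -0.28 ± 0.11, adjusted p = 0.0747), in IH (log2 fold change -0.10, adjusted p = 0.528) or between them (log2 fold change 0.18, adjusted p = 0.452). The call in SH was gained without replicate 1 of control or replicate 3 of IH, each left out alone (adjusted p between 0.0419 and 0.0465). The 3 genes are neighbours on chromosome 4 of GRCm39, with C1qb from 136606009 to 136613511, C1qc from 136616466 to 136620376 and C1qa from 136623223 to 136626161, all on the minus strand.

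Tyrobp encodes the signalling adaptor of TREM2. Its counts were 168, 168, 232 and 231 in control, 155, 215, 192, 151 and 176 in IH and 121, 108, 164, 115 and 157 in SH. All SH libraries were below all control libraries, and those of IH lay across both. The fall in SH passed the test (log2 fold change -0.59 ± 0.17, adjusted p = 0.0247). It was lost without replicates 3 and 4 of control or replicates 2 and 4 of SH, each left out alone (adjusted p between 0.058 and 0.0691), and was -0.37 (adjusted p = 0.19) with the trends removed, its transcript of 609 bases being among the shortest of the members. Between IH and SH the difference did not pass (log2 fold change 0.42, adjusted p = 0.209).

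Csf1r, the receptor on which microglial survival depends, fell less. Its counts were 2461, 2434, 2365 and 2613 in control, 2176, 2321, 2475, 2213 and 2475 in IH and 2337, 2002, 1843, 2370.1 and 2030.0 in SH. SH replicate 4 lay within the control range, and the other SH libraries were below it, replicate 1 by the least. The fall in SH was small (log2 fold change -0.22 ± 0.07, adjusted p = 0.0467) and was lost without replicates 1, 2, 3 and 4 of control, replicates 2 and 4 of IH or replicates 2, 3 and 5 of SH, each left out alone (adjusted p between 0.0557 and 0.12). It was -0.21 (adjusted p = 0.141) with the trends removed, and held in 9 of 26 alternatives, being also lost with DESeq2 size factors, library total scaling, no filter and a fit of only the 2 groups. IH differed neither from control (log2 fold change -0.08, adjusted p = 0.473) nor from SH (log2 fold change 0.14, adjusted p = 0.368) past the threshold. Antisense transcripts of Hmgxb3 cover 19.8% of the annotated exon bases of Csf1r; the library was directional, but the strand setting of the counting is not given in the sources used here.

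Trem2, the lipid-sensing receptor that pairs with TYROBP, was lower in both hypoxic groups in these libraries without passing the threshold. By RT-qPCR, the paper reports no significant effect of exposure on Trem2, with a mean above control in IH and below it in SH. Its counts were 238, 262, 245 and 283 in control, 165, 175, 221, 119 and 216 in IH and 237, 134, 158, 222 and 177 in SH. Every IH and SH library was below the lowest control library, SH replicate 1 by under 1 count. The adjusted p missed the threshold in IH (log2 fold change -0.52 ± 0.19, adjusted p = 0.0827), as it did in SH (log2 fold change -0.47 ± 0.19, adjusted p = 0.0887). In SH it passed without replicate 1 of SH (adjusted p = 0.0429). With the trends removed the log2 fold changes were -0.35 (adjusted p = 0.266) in IH and -0.25 (adjusted p = 0.432) in SH. Aif1, the microglial cytoskeletal marker IBA1, had 85.4 ± 11.3 in control, 77.3 ± 23.9 in IH and 59.2 ± 12.9 in SH and was not called in SH (log2 fold change -0.53 ± 0.23, adjusted p = 0.109). Csf1, a ligand of CSF1R, was the fifth member of this group and was not called.

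**Figure D3:**
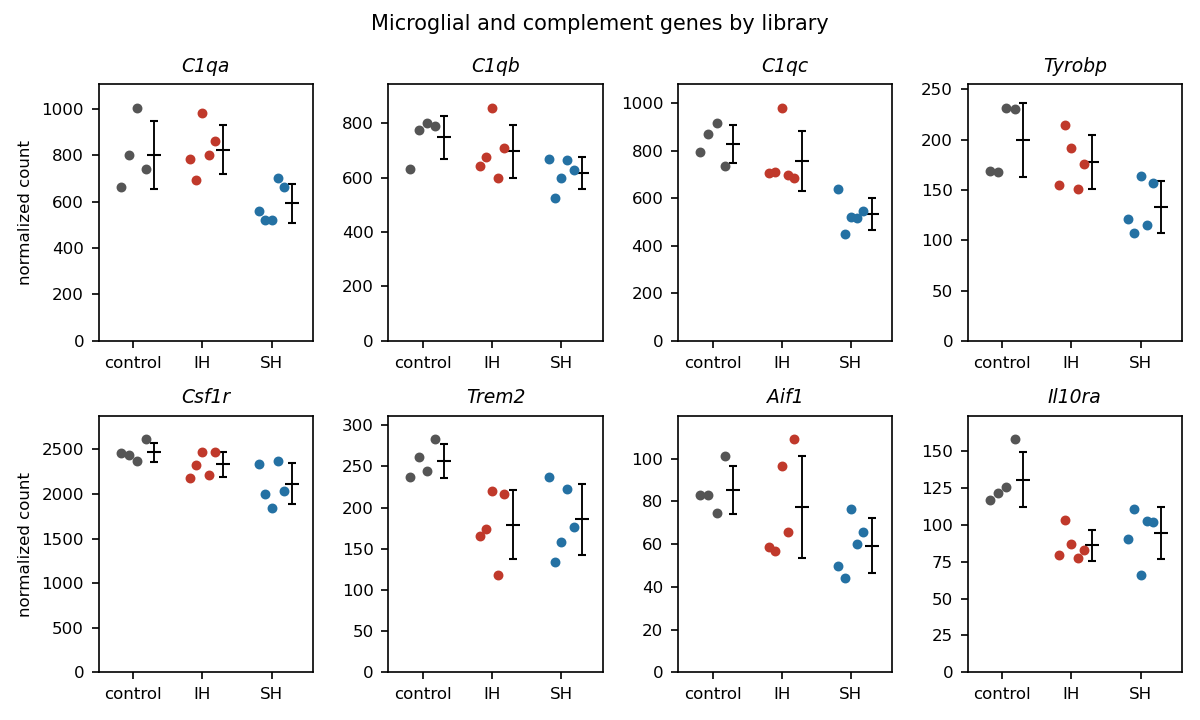
Normalized counts (vertical axis, from 0) of 8 microglial and complement genes in each control (grey), IH (red) and SH (blue) library, with the mean and SD at the right of each group. The SH libraries of C1qc lie between 450 and 638, below all control and IH libraries, and all hypoxic libraries of Trem2 lie below the control libraries.

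Ratios to Csf1r were formed after the values had been seen. The summed counts of C1qa, C1qb and C1qc over those of Csf1r were 0.967 ± 0.141 in control, 0.974 ± 0.0976 in IH and 0.826 ± 0.0683 in SH. Trem2 over Csf1r was 0.104 ± 0.00539 in control, 0.0762 ± 0.0142 in IH and 0.087 ± 0.0128 in SH. Il10ra over Csf1r was 0.0527 ± 0.00564 in control, 0.0369 ± 0.00442 in IH and 0.0446 ± 0.00816 in SH. None of 12 two-sided exact permutation tests of such ratios, Tyrobp included, passed 0.05 after adjustment over the 12 (lowest adjusted p = 0.0952). The smallest unadjusted p these tests can give is 0.0159 against control and 0.00794 between IH and SH, so a single ratio could not pass and the tests do not bear on whether the ratios differed.

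Per kilobase of the longest annotated transcript, the mean control level of C1qa was 583, that of C1qc 415, that of Csf1r 388 and that of Tyrobp 328 normalized counts. The neuronal chemokine Cx3cl1, at 3502, had the highest level per kilobase of all members.

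Promoters of C1qb, C1qc and Trem2 are shown as examples of the microglial and complement genes; of the 3, C1qc was called. They are RefSeq promoters of build GRCm38.p6, from 250 bases before to 50 bases after the start, at chr4:136886151-136886450 on the minus strand for C1qb, chr4:136892865-136893164 on the minus strand for C1qc and chr17:48346151-48346450 on the plus strand for Trem2. Capitals mark GAGGAA, the core bound by the microglial lineage factor PU.1, or its reverse complement. Each of the 3 holds 1 match, whereas the promoters of Csf1 and C3 hold 0.
C1qb: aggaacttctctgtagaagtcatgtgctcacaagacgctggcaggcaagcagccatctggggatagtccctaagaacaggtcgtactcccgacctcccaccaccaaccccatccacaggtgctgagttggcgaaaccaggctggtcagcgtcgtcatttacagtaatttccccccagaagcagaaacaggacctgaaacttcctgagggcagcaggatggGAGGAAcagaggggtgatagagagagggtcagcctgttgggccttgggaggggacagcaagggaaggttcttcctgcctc
C1qc: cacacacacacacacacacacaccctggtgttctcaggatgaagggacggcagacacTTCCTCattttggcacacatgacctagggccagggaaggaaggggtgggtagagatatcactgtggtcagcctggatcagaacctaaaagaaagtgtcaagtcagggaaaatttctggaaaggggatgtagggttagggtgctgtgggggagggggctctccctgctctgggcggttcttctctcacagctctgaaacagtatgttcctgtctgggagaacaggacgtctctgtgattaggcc
Trem2: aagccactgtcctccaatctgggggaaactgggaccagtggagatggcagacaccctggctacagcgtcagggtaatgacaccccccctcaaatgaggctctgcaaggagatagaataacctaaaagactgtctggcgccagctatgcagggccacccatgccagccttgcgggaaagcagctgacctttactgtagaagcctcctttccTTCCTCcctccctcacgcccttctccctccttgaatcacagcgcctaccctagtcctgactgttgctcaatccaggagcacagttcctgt
On either strand, GAGGAA was present in 28.3% of 32851 promoters of this length and in 38.1% of the 105 promoters matched to 74 members, so a match of these letters is common and does not mark a site.

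Of the 4 MHC genes tested, 0 were called in any comparison by edgeR, 1 was lower in SH at an unadjusted p under 0.05, and all 4 were below control in SH, with a median log2 fold change of -0.15. The median was -0.04 with the trends removed, and H2-K1 and H2-T23 were then above control. H2-K1, a classical class I heavy chain, had the highest counts of the group, with 498 ± 67.5 in control, 540.2 ± 75.1 in IH and 457 ± 56.5 in SH. Its difference did not pass in IH against control (log2 fold change 0.12 ± 0.12, adjusted p = 0.53) or against SH (log2 fold change 0.24, adjusted p = 0.322). In sequence, 6.8% of the 50-base words of H2-K1 also occur in H2-D1.

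Of 4 cathepsins tested, proteases of the lysosome, 1 rose in IH and 1 fell in SH. Ctsc, which activates serine proteases of immune cells, had counts of 208, 242, 235 and 309 in control, 364, 318, 292, 325 and 401 in IH and 277, 261, 258, 232 and 249 in SH. The IH libraries were above all SH libraries and overlapped only the highest control library. Ctsc rose in IH (log2 fold change 0.45 ± 0.12, adjusted p = 0.027), a call that was lost without replicates 1, 2 and 3 of control or replicates 1 and 5 of IH, each left out alone (adjusted p between 0.06 and 0.0956) and that stood at 0.32 (adjusted p = 0.136) with the trends removed. IH against SH did not pass with edgeR (log2 fold change 0.41, adjusted p = 0.0769), but was called by DESeq2 (adjusted p = 0.0301) and with the choroid plexus covariate (adjusted p = 0.0499).

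Ctsf, a cysteine cathepsin that is abundant in brain, fell in SH from 1253 ± 56.3 to 1059 ± 34.7 (log2 fold change -0.24 ± 0.06, adjusted p = 0.0109), with every SH library below every control library. IH was 1145 ± 61.1 and did not pass (log2 fold change -0.13, adjusted p = 0.153). The SH value was -0.08 (adjusted p = 0.45) with the trends removed. Ctsa, the protective protein of lysosomal sialidase and galactosidase, was 1989 ± 185 in control, 1898 ± 50.6 in IH and 2146 ± 126 in SH as counted (log2 fold change 0.11, adjusted p = 0.243 in SH against control, and log2 fold change -0.18, adjusted p = 0.162 in IH against SH).

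Of the interferon-related genes, Irf3 rose in IH and Ifitm10 fell in SH. Of 14 tested, 10 were above control in IH, with a median log2 fold change of 0.25 (0.15 with the trends removed), but 1 was called higher and 0 lower. In SH, 6 were above control with a median of -0.03 (-0.08 with the trends removed), and 1 was called lower. Irf3, the transcription factor that drives type I interferon after sensing of nucleic acids, had counts of 457, 437, 459 and 520.1 in control, 623, 556, 655, 586 and 585 in IH and 418, 417, 426, 549.7 and 482 in SH. Every IH library was above every control and SH library. The rise passed the test against control (log2 fold change 0.36 ± 0.09, adjusted p = 0.0238) and against SH (log2 fold change 0.39 ± 0.09, adjusted p = 0.0317). The first call was lost without replicates 1 and 2 of control or replicate 1 of IH, each left out alone (adjusted p between 0.0511 and 0.0776). The second was lost without replicates 1, 3 and 4 of IH or replicates 1, 2, 3 and 5 of SH, each left out alone (adjusted p between 0.0511 and 0.0831), and with only the 2 groups fitted. With the trends removed the values were 0.47 (adjusted p = 0.0132) and 0.34 (adjusted p = 0.0694).

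Ifitm10, a member of the interferon-induced transmembrane family by name, fell in SH from 419 ± 40.1 to 300.3 ± 33.4 (log2 fold change -0.48 ± 0.14, adjusted p = 0.0284). All SH libraries were below all control libraries, and the call was lost without replicates 1, 2 and 4 of control or replicates 2 and 4 of SH, each left out alone (adjusted p between 0.053 and 0.0814). With the trends removed the value was -0.45 (adjusted p = 0.0702). Ifi27 had the highest counts of the group, at 655 ± 88.3 in control, 661 ± 118 in IH and 698 ± 111 in SH, with overlap of all groups.

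Ifit3 and Ifit3b, antiviral genes induced by interferon and named here after their values were seen, did not pass the test in IH. Ifit3b had counts of 74.6, 90.8, 66.6 and 62.0 in control, 123.3, 100.1, 83.5, 108 and 87.7 in IH and 73.4, 95.3, 72.9, 66.2 and 66.5 in SH (log2 fold change 0.45, adjusted p = 0.104 in IH against control). Ifit3 had means of 108 ± 24.4, 133 ± 15.8 and 106 ± 10.2 (log2 fold change 0.30, adjusted p = 0.225). The 2 genes cannot be fully separated by reads, since 47.8% of the 50-base words of Ifit3b occur in Ifit3. Their RefSeq promoters (GRCm38.p6, chr19:34583279-34583578 for Ifit3 and chr19:34607707-34608006 for Ifit3b, both on the plus strand) are shown because they are near copies. Capitals mark GAAANNGAA, the core of an interferon-stimulated response element, here on the reverse strand.
Ifit3: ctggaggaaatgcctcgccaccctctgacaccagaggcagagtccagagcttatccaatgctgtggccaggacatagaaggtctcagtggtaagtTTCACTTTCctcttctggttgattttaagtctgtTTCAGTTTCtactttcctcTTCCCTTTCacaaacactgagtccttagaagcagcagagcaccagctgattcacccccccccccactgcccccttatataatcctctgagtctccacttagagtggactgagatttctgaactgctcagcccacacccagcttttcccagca
Ifit3b: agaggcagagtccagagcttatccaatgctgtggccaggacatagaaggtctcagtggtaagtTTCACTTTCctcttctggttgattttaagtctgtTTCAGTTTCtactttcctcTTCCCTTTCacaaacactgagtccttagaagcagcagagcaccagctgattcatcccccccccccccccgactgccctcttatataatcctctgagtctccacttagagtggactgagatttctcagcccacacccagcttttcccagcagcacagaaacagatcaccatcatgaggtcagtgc
Each holds 3 matches in the same order. The same letters were present, on either strand, in 8.6% of all promoters and in 17.1% of the promoters of members.

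Of 9 interleukin receptors tested, 1 fell and 1 rose in IH, and 0 fell and 1 rose in SH. Il1r1, the signalling receptor of interleukin 1, had counts of 247, 240.5, 321 and 351 in control, 406, 414, 410.3, 451 and 491 in IH and 319.7, 364, 388, 526 and 478 in SH. The IH libraries were above all control libraries, and SH replicate 1 lay within the control range. Il1r1 rose in IH to 1.5 times the control level (log2 fold change 0.58 ± 0.15, adjusted p = 0.022) and in SH to 1.43 times (log2 fold change 0.52 ± 0.15, adjusted p = 0.0249). The IH call was lost without replicates 1 and 2 of control, each left out alone (adjusted p between 0.076 and 0.0764). The SH call was lost without replicates 1 and 2 of control or replicates 4 and 5 of SH, each left out alone (adjusted p between 0.057 and 0.0839), and with only the 2 groups fitted. With the trends removed the values were 0.48 (adjusted p = 0.0636) and 0.39 (adjusted p = 0.122), the transcript being 6356 bases long. Endothelial cells of the brain are a known site of Il1r1, and the endothelial markers were also higher in both hypoxic groups; their part in the result was not tested.

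Il1rap, the shared coreceptor of interleukin 1 and interleukin 33, had 1373 ± 161 in control, 1713 ± 298 in IH and 1790.4 ± 357 in SH and was called neither in IH (log2 fold change 0.32, adjusted p = 0.149) nor in SH (log2 fold change 0.38, adjusted p = 0.0699). In SH it passed by DESeq2 (adjusted p = 0.0339), with the choroid plexus covariate (adjusted p = 0.04) and without replicate 3 of control, replicate 5 of IH or replicate 1 of SH, each left out alone (adjusted p between 0.0339 and 0.0473). Il10ra, the ligand-binding receptor of the anti-inflammatory interleukin 10, had counts of 116, 122, 125 and 158 in control, 79.4, 103, 87.1, 77.3 and 82.6 in IH and 90.0, 111, 65.6, 102 and 102 in SH. Every IH and SH library was below every control library. The fall passed in IH (log2 fold change -0.60 ± 0.17, adjusted p = 0.0331), while the SH value missed the threshold (log2 fold change -0.47, adjusted p = 0.0595). The IH call was lost without replicates 1, 2, 3 and 4 of control or replicates 1, 4 and 5 of IH, each left out alone (adjusted p between 0.0516 and 0.0986), and the value was -0.56 (adjusted p = 0.068) with the trends removed.

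Of the 6 interleukins, Il17d and Il33 were called. Il33, an alarmin that brain tissue makes in astrocytes and oligodendrocytes, had counts of 821, 942, 1041 and 782 in control, 817, 1082, 893, 1035 and 1300.2 in IH and 1376, 1135, 983, 1201 and 1191 in SH. It rose in SH (log2 fold change 0.39 ± 0.13, adjusted p = 0.0441) with overlap of 1 SH library and the control range, and was not called in IH (log2 fold change 0.19, adjusted p = 0.323). The SH call was lost without replicates 1, 2 and 4 of control, replicates 2 and 4 of IH or replicates 1, 2, 4 and 5 of SH, each left out alone (adjusted p between 0.0511 and 0.121) and with 80th percentile scaling, and was 0.26 (adjusted p = 0.261) with the trends removed. Oligodendrocyte markers (7 in the table) summed to between 72520 and 107429 in control, to between 83512 and 189614 in IH and to between 82916 and 143467 in SH, with median log2 fold changes of 0.42 in IH and 0.44 in SH. The median of the 2 astrocyte markers was -0.05 in IH and -0.14 in SH. The part of either cell type in the result was not tested.

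Il17d, a divergent cytokine of the interleukin 17 family, was 237 ± 19.8 in control, 164 ± 23.9 in IH and 173 ± 41.6 in SH. All IH libraries were below all control libraries. The IH call was at the threshold (log2 fold change -0.53 ± 0.16, adjusted p = 0.05) and was lost without replicates 1, 2, 3 and 4 of control, replicates 1, 2, 4 and 5 of IH or replicates 3, 4 and 5 of SH, each left out alone (adjusted p between 0.0553 and 0.11), with the size factors of DESeq2 and with no filter. It stood at -0.53 (adjusted p = 0.0689) with the trends removed. In SH it missed the threshold (log2 fold change -0.45, adjusted p = 0.0644) but passed by DESeq2 (adjusted p = 0.0465) and without replicate 1 of SH (adjusted p = 0.011).

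The kinase and the factor that carry many cytokine signals were higher after IH, with calls that held in 25 (Jak2) and 26 (Stat3) of 26 alternatives. Jak2, the kinase bound to receptors of interferon gamma, interleukin 6 family cytokines and hormones, had counts of 771, 797, 875 and 786 in control, 1176, 1039, 926, 932 and 1046 in IH and 942, 1047, 990.3, 996 and 1007 in SH. All 10 hypoxic libraries were above all 4 control libraries. The rise was 1.27 times in IH (log2 fold change 0.34 ± 0.08, adjusted p = 0.0108), against 1.23 times in SH (log2 fold change 0.30 ± 0.08, adjusted p = 0.0123), and leaving out any single library kept both calls. With the trends removed the values were 0.28 (adjusted p = 0.0308) and 0.21 (adjusted p = 0.0767).

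Stat3, which JAK kinases activate below interleukin 6 family receptors, had counts of 1016, 1031, 1077 and 959.7 in control, 1353, 1191, 1327, 1392 and 1541 in IH and 1091, 1019, 1160.4, 1416 and 1314 in SH. All IH libraries were above all control libraries, and SH replicate 2 lay within the control range. Stat3 rose in IH to 1.33 times the control level (log2 fold change 0.41 ± 0.10, adjusted p = 0.0133), a call that remained in each of 26 alternatives. The SH value missed the threshold (log2 fold change 0.23, adjusted p = 0.0928) but passed without replicate 2 of SH (adjusted p = 0.0496). IH and SH did not differ past the threshold (log2 fold change 0.18, adjusted p = 0.349), so a rise in IH alone is not shown. Of the 5 JAK and STAT genes tested, 4 were above control in each hypoxic group, with medians of 0.25 and 0.14. The RefSeq promoters of Jak2, Stat3, Irf3 and Il1r1 held 0 matches to TTCNNNGAA, the palindromic core bound by STAT dimers, which was present in 8.3% of all promoters and 12.4% of those of members; the letters are absent from these windows only.

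**Figure D4:**
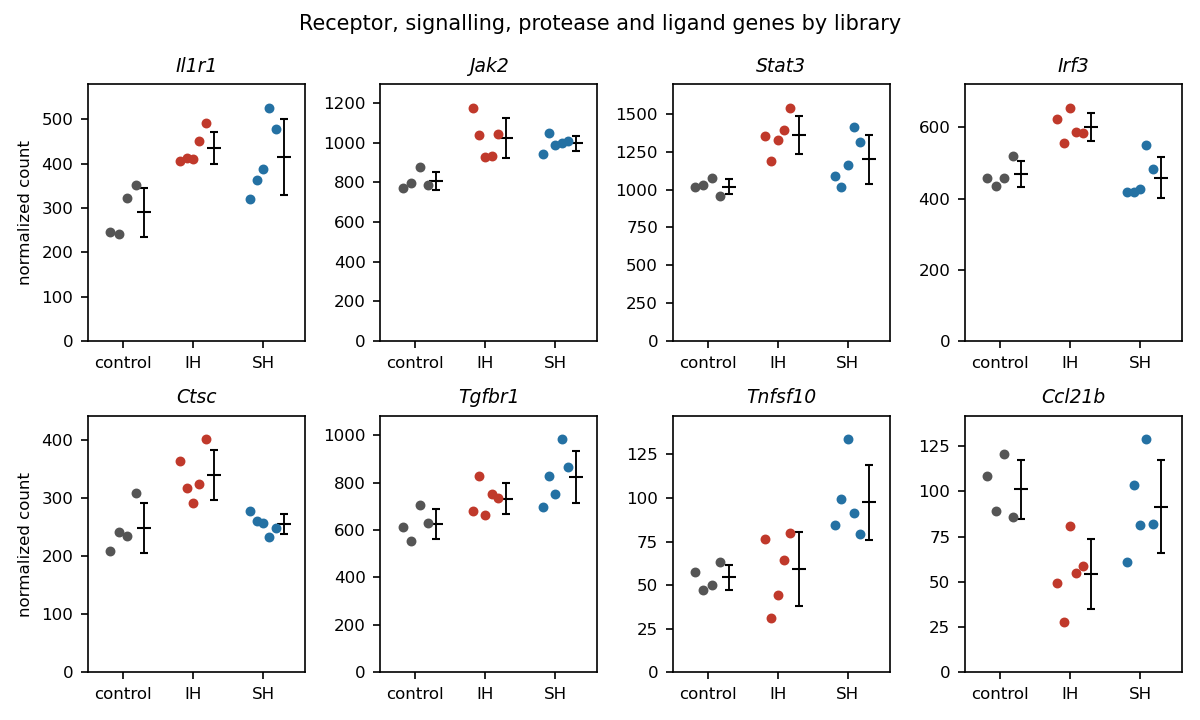
Normalized counts (vertical axis, from 0) of 8 receptor, signalling, protease and ligand genes in each control (grey), IH (red) and SH (blue) library, with the mean and SD at the right of each group. All hypoxic libraries of Jak2 (926 to 1176) lie above the control libraries (771 to 875), and all IH libraries of Irf3 lie above the other groups.

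Of 8 TNF ligands and receptors, 1 was called. Tnfsf10, the death ligand TRAIL, had counts of 57.3, 47.3, 50.4 and 63.1 in control, 76.3, 31.1, 44.1, 64.6 and 80.04 in IH and 84.7, 99.4, 134, 91.2 and 79.3 in SH. Every SH library was above every control library, and the IH libraries spread from below the control range to just inside the SH range. Tnfsf10 rose in SH to 1.79 times the control level (log2 fold change 0.84 ± 0.25, adjusted p = 0.0305). The call was lost without replicates 1, 2 and 3 of control or replicates 2 and 3 of SH, each left out alone (adjusted p between 0.055 and 0.0842), and was 0.68 (adjusted p = 0.118) with the trends removed. IH was lower than SH without passing the adjusted threshold (log2 fold change -0.71 ± 0.24, adjusted p = 0.144). Tnfrsf19 (TROY), the receptor with the highest counts, was 1292 ± 47.2 in control and 1383 ± 58.5 in SH (log2 fold change 0.10, adjusted p = 0.294).

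All 3 NF-kB inhibitor genes were below control in SH, with a median log2 fold change of -0.33 (-0.14 with the trends removed). All 3 were also below control in IH, with a median of -0.09 (0.03 with the trends removed), and 1 was called in SH and 0 in IH. Nfkbib, which encodes the inhibitor IkB-beta, had counts of 385, 284, 383 and 356 in control, 313, 309, 365, 334 and 372 in IH and 285, 267, 281, 279.9 and 283 in SH. Its fall in SH passed (log2 fold change -0.33 ± 0.10, adjusted p = 0.0275), although control replicate 2 lay within the SH range. The call was lost without replicates 1, 3 and 4 of control or replicates 2 and 4 of SH, each left out alone (adjusted p between 0.0509 and 0.0938), and was -0.12 (adjusted p = 0.503) with the trends removed. All IH libraries were above all SH libraries, but that difference did not pass (log2 fold change 0.28, adjusted p = 0.146).

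Chemokines were led by Cx3cl1, the neuronal fractalkine that binds the microglial receptor CX3CR1. Its counts were 12124, 11552, 11031 and 11752 in control, 10504, 11184, 11544, 11158 and 11822 in IH and 9724, 9053, 9178, 11239.7 and 11476 in SH. SH replicates 1, 2 and 3 were below all control and IH libraries, while replicates 4 and 5 lay among them. The difference missed the threshold in SH against control (log2 fold change -0.20 ± 0.07, adjusted p = 0.0723) and in IH against SH (log2 fold change 0.15, adjusted p = 0.318). It passed against control without replicates 4 and 5 of SH, each left out alone (adjusted p between 0.0332 and 0.0487), and was -0.05 (adjusted p = 0.724) with the trends removed.

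Ccl21b and Ccl21d are copies of the lymphoid homing chemokine CCL21, and the counts of either cannot be assigned with certainty, since 100% of the 50-base words of Ccl21b occur in Ccl21d and in Ccl21e. Ccl21b had counts of 108, 88.9, 121 and 86.0 in control, 49.1, 27.8, 81.1, 55.0 and 58.8 in IH and 61.1, 103, 81.4, 129 and 82.0 in SH. The IH libraries were all below the control libraries. Ccl21b fell in IH (log2 fold change -0.90 ± 0.26, adjusted p = 0.0406), a call that was lost without replicates 1, 2, 3 and 4 of control or replicates 1, 2, 4 and 5 of IH, each left out alone (adjusted p between 0.053 and 0.0977) and with only the 2 groups fitted, and that stood at -0.73 (adjusted p = 0.118) with the trends removed. Ccl21d was not called in IH (log2 fold change -0.91 ± 0.29, adjusted p = 0.0571). Against SH neither passed, with log2 fold change -0.74, adjusted p = 0.147 for Ccl21b and log2 fold change -0.60, adjusted p = 0.324 for Ccl21d.

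The TGF-beta receptors were above control in both hypoxic groups and the ligand Tgfb1 was below, with 1 of the 4 genes called. Tgfbr1, the type I kinase receptor, had counts of 613, 555, 704 and 628 in control, 678, 827, 664, 752 and 737 in IH and 696, 827, 752, 982 and 865 in SH. SH replicate 1 lay within the control range and the other SH libraries above it. Tgfbr1 rose in SH (log2 fold change 0.40 ± 0.10, adjusted p = 0.0149) and was not called in IH (log2 fold change 0.23, adjusted p = 0.152). The SH call was lost without replicate 2 of control (adjusted p = 0.0534), and was 0.21 (adjusted p = 0.197) with the trends removed.

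P2ry1, a receptor for ADP that has low counts here, was 40.8 ± 13.1 in control, 65.1 ± 13.9 in IH and 60.0 ± 9.87 in SH. It passed the limits of the study in IH but not the adjusted threshold (log2 fold change 0.66 ± 0.24, adjusted p = 0.0779), and in SH it passed neither the adjusted threshold nor the fold limit (log2 fold change 0.54, adjusted p = 0.112). P2ry6, a receptor for UDP on microglia, was 65.3 ± 14.7, 70.9 ± 18.0 and 67.5 ± 17.7 in control, IH and SH.

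The rule also took in 7 genes, of which 6 were tested, that its name patterns match and that were set apart here from the role groups. Nfkbil1, an NF-kB inhibitor-like gene within the MHC region, had counts of 205, 264, 225 and 227 in control, 203, 236, 212, 186 and 232 in IH and 157, 176, 135, 172 and 149 in SH. Every SH library was below every control and IH library. Nfkbil1 fell in SH (log2 fold change -0.54 ± 0.12, adjusted p = 0.00715), whereas IH against SH did not pass with edgeR (log2 fold change 0.44, adjusted p = 0.0611) and was called by DESeq2 (adjusted p = 0.023). Leaving out any single library kept the SH call, but with the trends removed the value was -0.16 (adjusted p = 0.523).

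Irf2bpl, a neuronal nuclear protein, fell in SH from 1969 ± 196 to 1627 ± 115 (log2 fold change -0.27 ± 0.08, adjusted p = 0.0214), with -0.07 (adjusted p = 0.475) once the trends were removed, and the call was lost without replicates 1 and 4 of control or replicate 2 of SH, each left out alone (adjusted p between 0.0504 and 0.0815). IH against SH did not pass (log2 fold change 0.22, adjusted p = 0.145). Tgfb1i1 (HIC-5), a focal adhesion protein, fell in IH from 222 ± 18.4 to 161 ± 19.5 (log2 fold change -0.46 ± 0.14, adjusted p = 0.0446), with every IH library below every control library. That call was lost without replicates 1, 2, 3 and 4 of control, replicates 1, 2, 3 and 5 of IH or replicate 2 of SH, each left out alone (adjusted p between 0.052 and 0.121) and with library total scaling, and the value was -0.48 (adjusted p = 0.0411) with the trends removed.

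Genes on the opposite strand cover 33.7% of the exon bases of Nfkbil1 (Gm16181), 26.8% of those of H2-K1 (Gm53999) and 24.3% of those of Ctsa (Pltp), so the counts of these members could include antisense reads if strand was not used in counting. As choroid plexus markers varied widely between libraries, their level was also fitted as a covariate. With it, Csf1r in SH was at -0.23 on the log2 scale (adjusted p = 0.0589, edgeR), Il33 in SH at 0.41 (adjusted p = 0.0508), Il17d in IH at -0.54 (adjusted p = 0.0572) and Ccl21b in IH at -0.81 (adjusted p = 0.0611). These 4 were then no longer called, with fold changes close to those without the covariate. Others were called with it and not without it, namely P2ry1 in IH (adjusted p = 0.0374) and SH (adjusted p = 0.0476), Il1rap in SH and Ctsc in IH against SH.

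**Figure D5:**
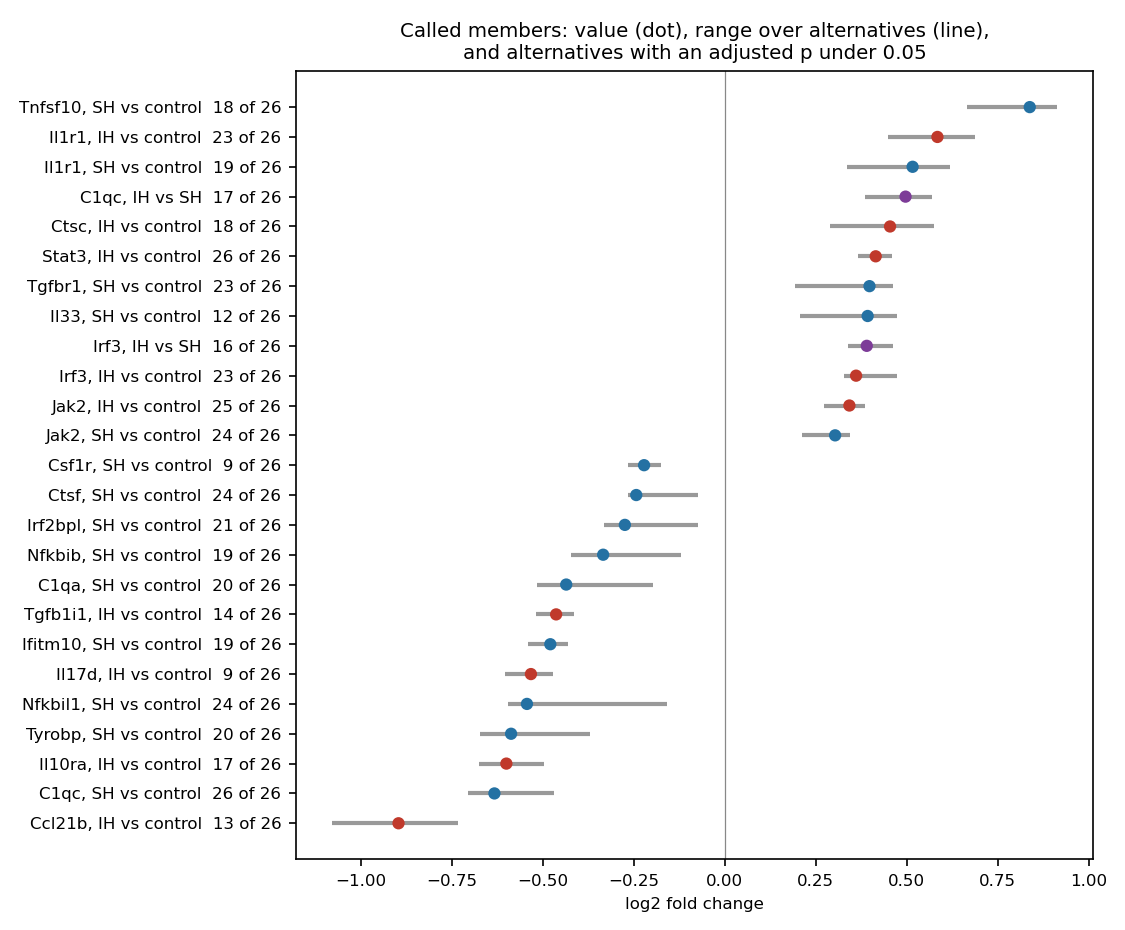
Log2 fold change (horizontal axis) of each called member, with a dot for the value reported (red for IH against control, blue for SH against control, purple for IH against SH) and a line for its range over the alternatives. The count beside each name is the number of alternatives in which the call held, which was 26 of 26 for C1qc in SH and Stat3 in IH.

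The other 11 members were under a mean count of 40 in at least 1 group and were not tested. Among them were C3, the central complement component, at 19.2 ± 11.5 in control, 39.4 ± 21.0 in IH and 41.3 ± 20.4 in SH, Ifit1 at 31.9 ± 5.77, 36.9 ± 9.39 and 46.2 ± 8.91, and Stat5a at 37.7 ± 4.58, 48.9 ± 13.1 and 39.2 ± 17.3. The others were Ctsk, H2-Q10, Ifi35, Il27ra, Tnfrsf12a, Ccl27b, P2ry14 and Il1rapl2.

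Genes of the same pathways that the rule does not name were tested in the same fit. Their values are given as counted and not with length and GC trends removed. With those trends removed, 3.07% of all genes were lower and 2.53% higher in IH, and 3.48% and 3.02% in SH. Over 164 such genes, each counted once, 1.83% were lower and 5.49% higher in IH, beside 4.85% and 6.08% of all genes, and 3.66% were lower and 10.4% higher in SH, beside 10.5% and 10.2%. Of the 23 other genes listed for microglia, 0 were lower and 1 was higher in IH. This was Cd47, a signal that restrains phagocytosis and is not made by microglia alone (log2 fold change 0.26, adjusted p = 0.0121). Of 9 other genes of disease-associated microglia, Apoe, a lipid carrier made mostly by astrocytes, fell in IH (log2 fold change -0.28, adjusted p = 0.0211), while Ftl1, the ferritin light chain, fell (log2 fold change -0.38, adjusted p = 0.00199) and Cd63, a lysosomal tetraspanin, rose (log2 fold change 0.48, adjusted p = 0.0359) in SH. Ftl1 was also higher in IH than in SH (log2 fold change 0.27, adjusted p = 0.0335). Of 17 other complement genes, C1qbp fell in SH (log2 fold change -0.39, adjusted p = 0.00946) and Sez6, a neuronal complement regulator, fell in IH (log2 fold change -0.29, adjusted p = 0.0448).

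Of 12 other antigen presentation genes, Calr and Pdia3, endoplasmic reticulum chaperones that load class I molecules, rose in IH, Calr by 0.58 (adjusted p = 5.48e-04) and Pdia3 by 0.62 (adjusted p = 2.18e-04) on the log2 scale, and Calr rose in SH (log2 fold change 0.42, adjusted p = 0.00219). Pdia3 was also higher in IH than in SH (log2 fold change 0.46, adjusted p = 0.00189). Both serve protein folding in general. Of 23 other interferon response genes, 0 were called in IH by edgeR or DESeq2, with 2 lower and 3 higher at an unadjusted p under 0.05, and Xaf1 (log2 fold change 0.73, adjusted p = 0.0159) and Uba7 (log2 fold change 0.51, adjusted p = 0.0271) rose in SH.

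Of 19 other NF-kB and TNF receptor signalling genes, 1 rose in IH (Chuk, the kinase IKK-alpha, log2 fold change 0.36, adjusted p = 0.0238), and in SH 3 rose (Chuk, Tab3 and Tnfaip6) and Rbck1 fell. Of 14 other JAK, STAT and cytokine receptor genes, Pias2, a SUMO ligase, rose in both groups (IH log2 fold change 0.25, adjusted p = 0.0375; SH log2 fold change 0.41, adjusted p = 0.00205), Bcl6 rose in SH, and Crlf2, the receptor of thymic stromal lymphopoietin (log2 fold change -0.77, adjusted p = 0.00276), and the phosphatase gene Ptpn6 (log2 fold change -0.59, adjusted p = 0.0384) fell in SH. Of 17 other TGF-beta signalling genes, 3 rose in IH and 5 in SH, beside 6.08% and 10.2% of all genes called higher, and 0 fell. These included Skil, a repressor of SMAD factors (log2 fold change 0.55, adjusted p = 0.00394), and Smad4 (log2 fold change 0.34, adjusted p = 0.0127) in SH and Smad5 in both groups (IH log2 fold change 0.25, adjusted p = 0.0407; SH log2 fold change 0.30, adjusted p = 0.0115).

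Of 10 other chemokine and chemokine receptor genes, Gm10591, a further copy of CCL21, fell in IH (log2 fold change -0.88, adjusted p = 0.046), while DESeq2 called 0 of the 10. Of 24 other lysosomal genes, 1 rose in IH and 4, Cd63 among them, rose and 1 fell in SH. Npc1, which exports cholesterol from lysosomes, rose in both groups (IH log2 fold change 0.35, adjusted p = 0.0258; SH log2 fold change 0.41, adjusted p = 0.00756), and Smpd1, the acid sphingomyelinase, fell in SH (log2 fold change -0.22, adjusted p = 0.0443).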

How the data were processed

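Hippocampal RNA-seq of 4 control, 5 IH and 5 SH mice was analysed, grouped by the sample titles. Per the submitters' processing notes and the methods, the authors converted reads with bcl2fastq 2.19, trimmed them with fastp 0.23.4, aligned them to GRCm39 with HISAT2 2.2.1 and quantified them with StringTie 2.2.1 from poly(A)-selected, directional libraries. The values deposited by the authors are estimated counts per gene, without normalization between libraries, for protein-coding genes that passed the authors' limits on counts and on difference from control. The table held fractional values for 10 genes, which were rounded.

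The 7338 genes whose mean reached 40 counts in each of the groups were tested with edgeR 4.0.16 (R 4.3.3) by the quasi-likelihood test after TMM scaling, in 1 fit of the 3 groups, with Benjamini-Hochberg adjustment over all genes tested. To normalize, each count was divided by its library's effective size (TMM) over the average effective size. Standard errors were taken from the fold change and its F statistic. On simulated data for IH against control over 7338 genes, 70.5% of 200 changed genes were recovered with 4 false calls. Symbols were matched to GENCODE on GRCm39, 7707 directly and 16 by synonym, and 33 were not matched. Totals per library were between 7203659 and 11777101 counts. According to the methods, several mice were housed in each cage. Which of the sequenced mice shared a cage or litter is not given in the sources used here.

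The members and lists were chosen with earlier results of these data known. Named genes are members called at an adjusted p under 0.05 or past the limits of the study in any comparison, Trem2, the member with the highest mean in each role group and the members that define microglia. Ifit3 and Ifit3b were added after their values were seen. Genes of other lists are named only where called. Alternatives were DESeq2 1.42.0, other scalings and filters, a fit of only the 2 groups compared, a robust prior, a replicate block, GC and length offsets, a choroid plexus covariate, and leaving out each of 14 libraries. Within groups, the lowest chi-square per degree of freedom over 26 library pairs was 8.96, so no library was counted as a copy of another.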

Additional observations from a re-analysis of the deposited data

Results flagged for a closer look

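Of 105 groups of libraries, those of the named genes in each condition, 6 had a library whose gap to the nearest other library was more than Dixon's 95% critical value of the group's range. Chance flags about 1 in 20 groups. C1qb in control replicate 1 was 632, beside 775 to 800 in the other control libraries. C1qc in IH replicate 3 was 980, beside 685 to 709 in the other IH libraries. Without that library, as without 7 others left out alone, C1qc was not called between IH and SH. Il1rap in control replicate 3 was 1613, beside 1274 to 1306 in the others. Ctsa in SH replicate 1 was 2364, beside 2053 to 2136. Nfkbib in SH replicate 2 was 267, beside 280 to 285. Ifit3b in SH replicate 2 was 95.3, beside 66.2 to 73.4. No cause of these values was tested.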

How the results depend on the processing

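Over the alternatives, 1484 of the values of named genes kept their direction and their side of the threshold, 171 lost the call, 27 gained it and 2 reversed, both C1qa in IH against control, at -0.042 without control replicate 1 and -0.030 without IH replicate 3, in a range from -0.042 to 0.169 without single libraries. With GC and length trends removed, members called in IH against control were 1 lower and 3 higher and those past the limits 0 higher, with a median of 0.056. In SH against control they were 1 lower and 1 higher, past the limits 0 lower, with a median of -0.0747, and in IH against SH 1 lower and 1 higher. Replicate numbers were not treated as pairs, since deviations of same-numbered libraries correlated between -0.304 and 0.457 over 13 pairs and above 0.1 in 6. With the replicate block, 1 member was called lower in IH, 3 higher in SH, and 4 lower and 2 higher passed the limits in SH, while 4.51% of all genes were called lower in IH and 9.59% higher in SH. The block also called Aif1 (adjusted p = 0.0455, edgeR) and Cx3cl1 (adjusted p = 0.0319) in SH, and did not call Ctsc, Il17d, Ccl21b and Tgfb1i1 in IH or Il33, Tnfsf10 and Csf1r in SH. With the trends removed, the shares of all genes lay between 1.08% and 3.48%, and with the block as well between 1.09% and 3.38%. With the block and the trends removed, 0 lower and 3 higher were called in IH with 1 higher past the limits and a median of 0.047. In SH the block with trends removed gave 1 lower and 1 higher called, 1 lower and 2 higher past the limits and a median of -0.064, and in IH against SH 1 lower and 1 higher. The choroid plexus covariate gave 2 called lower in IH, beside 4.07% of all genes, and 3 past the limits higher in SH. Past the limits, 1 was higher in IH with 80th percentile scaling and with filterByExpr, 1 was lower in SH with library total scaling and with no filter, and 2 were higher in SH with DESeq2, no filter and filterByExpr. No filter moved the SH median to -0.0743. Between IH and SH, DESeq2 called 5 higher and a fit of only the 2 groups 0, beside 2.52% and 0.474% of all genes. The cause of these changes was not tested.

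Leaving out 1 library at a time, members called in IH against control ranged from 0 to 4 lower and from 2 to 6 higher, in SH against control from 3 to 15 lower and from 1 to 6 higher, and in IH against SH were 0 lower and from 0 to 3 higher. The 15 came without SH replicate 1 and the 3 without SH replicate 2, beside 11.9% and 7.78% of all genes. In IH against control, the share of all genes ranged from 2.29% to 6.6% lower and from 2.84% to 6.72% higher. The share higher ranged from 5.41% to 11.9% in SH against control and from 0.628% to 1.56% in IH against SH. Shares of all genes past the limits were not computed without single libraries. Past the limits they ranged from 2 to 4 lower and 1 to 3 higher in IH, from 1 to 5 lower and 1 to 4 higher in SH, and from 1 to 3 lower and 0 to 3 higher in IH against SH. Medians ranged from -0.02 to 0.01, from -0.14 to -0.09 and from 0.09 to 0.16. Members with mean counts near 40, such as P2ry1, and 11 members under it are limited by depth.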
